A study of Mus musculus with 12 samples.

Results

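Myokines are signalling proteins that muscle cells release, and 8 genes that code for such proteins were followed here in C2C12 cells, an established mouse myoblast line that fuses into myotubes. They were taken by symbol from the FPKM of 46983 genes, that is their sequenced fragments scaled to the length of the transcript and to the depth of the library, and all 8 were found in the file: *Fndc5*, *Il15*, *Il6*, *Metrnl*, *Sparc*, *Fgf21*, *Bdnf* and *Ostn*. The study asked how overexpression of PPARγ, the nuclear receptor that directs fat cell formation, alters the differentiation of these myoblasts. It sequenced RNA in 4 groups of 3 libraries, which are WT cells on 0d (WT_0d) and on 5d (WT_5d) of differentiation and PPARγ/+ cells on the same days (PPARγ/+_0d and PPARγ/+_5d). PPARγ/+ cells carried the PPARγ coding sequence in a PiggyBac vector and were selected with puromycin after transfection. WT cells are labelled wild type and are named by the methods as the group of the PB-IP vector, whereas the series description calls the controls uninduced cells of an inducible line. By the methods all cells grew in a medium with serum and LIF, a cytokine that signals through the same gp130 chain as interleukin 6, and no separate differentiation medium is named. The study's text describes the 3 libraries of a group as biological replicates, while the labels do not name separate cultures, and the p-values below measure the spread between these libraries.

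Fndc5 is a membrane protein whose shed extracellular part is known as irisin, and exercise is known to raise its transcript in muscle through the coactivator PGC-1α. Interleukin 15 and interleukin 6 are cytokines made by muscle fibres, Fgf21 is an endocrine fibroblast growth factor made mostly by the liver and by stressed muscle, and Sparc is a collagen-binding matrix protein. Metrnl is a hormone of muscle and fat, Bdnf is a neurotrophin, and Ostn (musclin) is a peptide that binds the clearance receptor of natriuretic peptides.

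The genes lie on different chromosomes in GRCm38 except for *Metrnl* and *Sparc*, which are both on chromosome 11. *Fndc5* spans chr4:129136999-129144593 and *Fgf21* spans chr7:45613886-45615490. *Il6* spans chr5:30013114-30019981. The starts of these genes are shown because all 3 were read from few fragments on 0d and from more on 5d, so that the letters next to the start can be set beside the change. Each stretch runs from 150 bases before to 30 bases after the start that RefSeq gives (GRCm38.p6), on the strand of the gene, which is chr4:129136849-129137028 on the plus strand for *Fndc5*, chr7:45615461-45615640 on the minus strand for *Fgf21* and chr5:30012964-30013143 on the plus strand for *Il6*. The capitals mark an E-box (CANNTG, general letters of bHLH factors, the myogenic ones among them), the core of an ATF4 element (TGATGNAA, on either strand) or a TATA box (TATAAA).
*Fndc5*: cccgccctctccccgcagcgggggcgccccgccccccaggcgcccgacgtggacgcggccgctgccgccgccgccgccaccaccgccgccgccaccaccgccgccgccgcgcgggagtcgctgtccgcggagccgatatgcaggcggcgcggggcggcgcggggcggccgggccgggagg
*Fgf21*: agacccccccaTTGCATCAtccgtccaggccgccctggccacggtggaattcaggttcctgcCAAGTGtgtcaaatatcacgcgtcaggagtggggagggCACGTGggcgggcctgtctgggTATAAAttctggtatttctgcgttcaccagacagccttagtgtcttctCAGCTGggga
*Il6*: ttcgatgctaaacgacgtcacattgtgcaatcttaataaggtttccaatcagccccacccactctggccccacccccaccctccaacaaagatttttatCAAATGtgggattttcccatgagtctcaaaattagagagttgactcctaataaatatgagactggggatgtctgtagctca

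The *Fndc5* stretch has no capitals. Its whole window of 300 bases (250 before to 50 after the start) held 82.3% G or C and 48 CG pairs, against medians of 52.7% and 7 over 32851 RefSeq windows of that length. The *Fgf21* window held 58% G or C and 9 CG pairs, with E-boxes that begin at -88, -50 and 21, an ATF4 core at -139 and a TATA box at -28, counted from 1 at the start. The *Il6* window held 44% G or C and 3 CG pairs, with an E-box at -51. The windows of *Sparc* and *Metrnl* held E-boxes as well, at -60, -10 and -1 and at -38, and the first of *Sparc* and that of *Metrnl* read CAGCTG like the one at 21 of *Fgf21*. *Bdnf* held an E-box in 6 of its 7 windows, 1 of them CAGCTG at -171, and an ATF4 core at 9 in another. An E-box was found in 72.3% of all windows, its form CAGCTG in 16.3%, the ATF4 core in 3.97% and TATAAA in 13.6%, searched on both strands. The direct repeat of AGGTCA with 1 base between its copies, the letters that PPARγ binds with RXR, was in 0.0396% of windows and in none of those of the myokine genes, while AGGTCA alone was in 16.3% of windows and among these genes in 1 of *Bdnf*. The cAMP response element TGACGTCA (1.79% of windows) and the MEF2 site (0.557%) were not matched in any of their windows. Windows were listed for 6 of the 8 genes, *Bdnf* with 7 and the others with 1 each, and none was listed for *Il15* and *Ostn*. These matches describe letters only, and no binding was measured.

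The depth lay between 15557941 and 22013355 fragments on genes. *Pparg* itself was read at 3.12 to 7.56 FPKM in the 6 WT libraries and at 28 to 92.7 FPKM in the 6 PPARγ/+ libraries, so each library stood on the side its label gives, and reads of the transgene and of the cell's own gene cannot be told apart. The myotube markers separated the days, with *Myog* at 0.603 to 15.7 FPKM in the libraries of 0d and at 78.8 to 271 FPKM in those of 5d. 1 library stood apart from its group. The 14 myotube markers summed to 6729 and 4941 FPKM in WT_5d replicates 1 and 2 but to 1418 FPKM in WT_5d replicate 3, which is within the range of 1417 to 1671 FPKM in PPARγ/+_5d. This sum is weighted to abundant markers such as *Acta1* (mean of 684 FPKM in PPARγ/+_5d). Of 13 markers tested, 7 were lower in every PPARγ/+_5d library than in every WT_5d library, replicate 3 included, as were 8.31% of all genes. The sum was 121 to 321 FPKM in WT_0d, with replicate 2 the highest, and 54.5 to 92.7 FPKM in PPARγ/+_0d. The 10 adipocyte markers summed to 10.6 to 23.4 FPKM in the WT libraries, 37.3 to 54.7 FPKM in PPARγ/+_0d and 89.7 to 210.0 FPKM in PPARγ/+_5d, and *Adipoq*, which defines fat cells, was at 0 to 0.0313 FPKM in WT and at 1.06 to 40.5 FPKM in PPARγ/+ libraries. The 8 markers of blood and vessel cells summed to at most 0.262 FPKM. The part of these markers in the results below was not tested beyond leaving out single libraries, and in such bulk samples fewer cells of a type and less RNA per cell cannot be told apart.

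**Figure D1:**
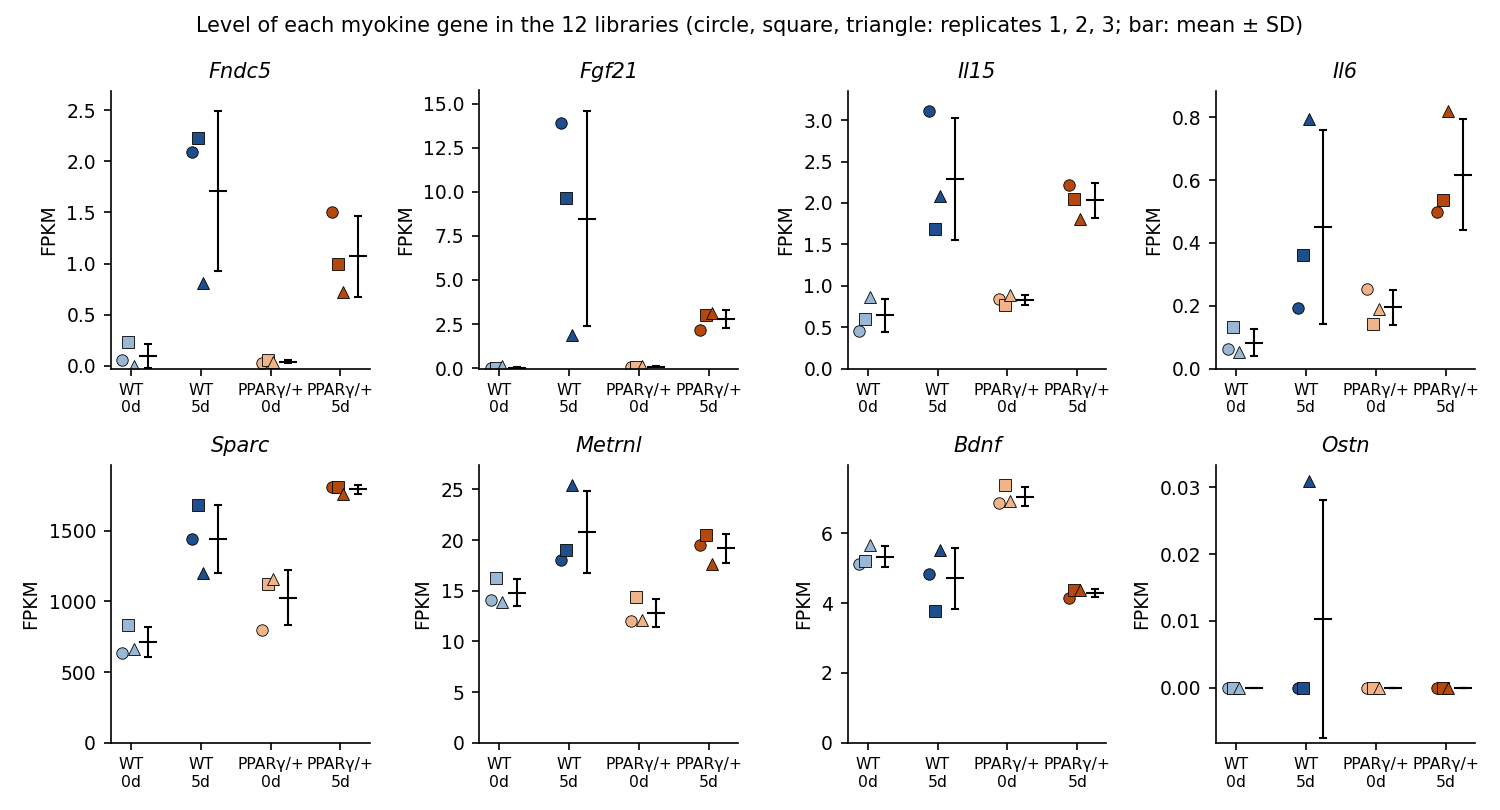
FPKM of the 8 myokine genes (linear axes, one scale per gene) in WT and PPARγ/+ cells on 0d and 5d, where each circle, square or triangle is replicate 1, 2 or 3 and the bar beside them is the mean ± SD of 3 libraries. *Fndc5*, *Fgf21*, *Il15*, *Il6*, *Sparc* and *Metrnl* are higher in every library of 5d than in every library of 0d within each cell type, while *Ostn* has 1 library above 0, at 0.0309 FPKM.

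Between 0d and 5d, 5 myokine genes were called higher in WT cells (*Fndc5*, *Fgf21*, *Il15*, *Il6* and *Sparc*). In PPARγ/+ cells 4 of them were called higher, all but *Sparc*, which rose there by less than 2-fold. None was called lower in either cell type. A gene was called between the days at an unadjusted p of at most 0.05 with a fold change of at least 2 in limma on log2(FPKM + 0.1). By this rule 8.94% of the 18023 genes tested were called higher and 7.53% lower in WT cells, and 9.11% and 6.06% in PPARγ/+ cells. The median log2 fold change of the 7 myokine genes tested was 1.47 in WT and 1.19 in PPARγ/+ cells, where that of all genes tested was -0.08 and -0.10. *Ostn* did not pass the filter of 0.1 FPKM in 3 libraries and was not tested. Of the 0d libraries none reached 0.1 FPKM of *Fgf21*, and only WT_0d replicate 2 did so for *Fndc5* (0.23 FPKM). Both genes thus passed the filter through the libraries of 5d, which favoured a higher value on 5d in advance. Their part in the counts and medians given here is therefore no independent support for a rise of the myokine genes. The libraries of the 2 days did not overlap for 6 of the 7 genes in the upward direction in both cell types, which was so for 20.2% of all genes in WT and 23.8% in PPARγ/+ cells, and 30.9% and 34.4% were separated downward.

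*Fndc5* was close to its detection limit on 0d. It was read at 0.056, 0.23 and 0 FPKM in WT_0d replicates 1 to 3, from 3, 16 and 0 fragments, and at 2.09, 2.23 and 0.81 FPKM in WT_5d, from 147, 119 and 51 fragments. In PPARγ/+ cells it was at 0.0297, 0.0555 and 0.0332 FPKM on 0d, from 2 to 4 fragments a library, and at 1.5, 0.993 and 0.721 FPKM on 5d, from 86, 59 and 37 fragments. All libraries of 5d stood above all of 0d. The highest library of 0d, WT_0d replicate 2, was also the one with the highest myotube markers of that day, and the lowest of WT_5d was replicate 3, the one with the lowest markers of its group. The log2 fold change was 3.27 (standard error 0.55, adjusted p = 0.00548 in limma) in WT and 3.02 (standard error 0.28, adjusted p = 0.000262) in PPARγ/+ cells. With so few fragments on 0d the fitted value depends on the FPKM added before the log, and from the fragments summed over 3 libraries the ratio of 5d to 0d was 16.7 (95% interval 10.5 to 28.2) in WT and 27 (13.4 to 63.6) in PPARγ/+ cells, intervals that cover counting error only. On 5d *Fndc5* stood somewhat below the middle of the genes tested, since 42.5% of them had a lower mean in WT_5d and 36.5% in PPARγ/+_5d.

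*Fgf21* had the largest change among the 8 genes in both cell types. WT_0d replicates 1 and 2 held no fragment and replicate 3 held 2 (0.0929 FPKM), whereas WT_5d was at 13.9, 9.64 and 1.89 FPKM from 330, 173 and 40 fragments. PPARγ/+_0d was at 0.0881, 0.0412 and 0.0985 FPKM from 1 or 2 fragments a library, and PPARγ/+_5d at 2.18, 3 and 3.12 FPKM from 42, 60 and 54 fragments. The 3 libraries of PPARγ/+_5d lay close together and those of WT_5d did not, because replicate 3 was below the lowest library of PPARγ/+_5d while the other 2 were above the highest. The log2 fold change was 5.70 (standard error 0.74, adjusted p = 0.00215) in WT and 4.03 (standard error 0.22, adjusted p = 4.09e-05) in PPARγ/+ cells. The summed fragments gave a ratio of 272 with a wide interval (75.1 to 2255) in WT, where 0d held 2 fragments in all, and of 37.1 (15.6 to 116) in PPARγ/+ cells. The gene moved from above 3.27% to above 71.4% of the genes tested by its mean in WT, and from above 8% to above 49.2% in PPARγ/+ cells.

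The interleukin genes were read at no more than 3.11 FPKM in any library and rose less. *Il15*, on chromosome 8 (chr8:82331632-82403222), was at 0.459, 0.603 and 0.86 FPKM in WT_0d and at 3.11, 1.68 and 2.09 FPKM in WT_5d, and at 0.838, 0.764 and 0.888 FPKM in PPARγ/+_0d and 2.22, 2.05 and 1.81 FPKM in PPARγ/+_5d. The days did not overlap, and each library held 17 to 151 fragments of the gene. The log2 fold change of *Il15* was 1.69 (standard error 0.30, adjusted p = 0.00635) in WT and 1.19 (standard error 0.13, adjusted p = 0.000518) in PPARγ/+ cells. *Il6* was at 0.0637, 0.131 and 0.0534 FPKM in WT_0d from 3, 8 and 3 fragments, and at 0.194, 0.363 and 0.796 FPKM in WT_5d from 12, 17 and 44 fragments. In PPARγ/+ cells *Il6* was at 0.253, 0.142 and 0.189 FPKM on 0d and at 0.497, 0.536 and 0.82 FPKM on 5d. Its order within WT_5d was the reverse of that of *Fgf21*, with replicate 3 the highest. The log2 fold change of *Il6* was 1.47 (standard error 0.44, adjusted p = 0.0414) in WT and 1.27 (standard error 0.25, adjusted p = 0.00605) in PPARγ/+ cells. With 1 FPKM added in place of 0.1, *Il15* and *Il6* were not called in either cell type, and *Fndc5* was not called in the PPARγ/+ cells, with a log2 fold change of 0.98.

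*Sparc* (chr11:55394500-55423183) was among the most abundant transcripts of these cells, ranking 36 of the genes tested in WT_0d, 22 in PPARγ/+_0d, 13 in WT_5d and 12 in PPARγ/+_5d by mean FPKM. It was at 637, 831 and 661 FPKM in WT_0d and at 1442, 1685 and 1200.2 FPKM in WT_5d. In PPARγ/+ cells it was at 801, 1124 and 1157 FPKM on 0d and at 1810.5, 1807 and 1758 FPKM on 5d. The days did not overlap in either cell type, and the spread within PPARγ/+_5d (SD 29.3 FPKM, n = 3) was smaller than in the other 3 groups (106 to 243 FPKM). The log2 fold change was 1.02 (standard error 0.20, adjusted p = 0.0086) in WT cells, at the edge of the 2-fold rule, and 0.82 (standard error 0.16, adjusted p = 0.00581) in PPARγ/+ cells, under it. In WT cells it was not called without WT_0d replicate 1 (0.95), without WT_0d replicate 3 (0.97) or without WT_5d replicate 2 (0.90), so the difference in calls between the cell types rests on the fold threshold.

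*Metrnl* and *Bdnf* differed between the days by less than 2-fold and were called in neither cell type. *Metrnl* (chr11:121701544-121716306) was at 14.1, 16.3 and 13.9 FPKM in WT_0d and 18, 19 and 25.4 FPKM in WT_5d, and at 12, 14.4 and 12.1 FPKM in PPARγ/+_0d and 19.5, 20.5 and 17.6 FPKM in PPARγ/+_5d. Its log2 fold change was 0.48 (standard error 0.15, adjusted p = 0.0443) in WT and 0.58 (standard error 0.09, adjusted p = 0.00244) in PPARγ/+ cells, positive in both and without overlap between the days. An unadjusted p under 0.05 at any fold was passed by 6 of the 7 genes in WT and by all 7 in PPARγ/+ cells, against 46.8% and 54.4% of all genes. *Bdnf* (chr2:109674700-109727007) was the only gene of the 7 with negative values. It was at 5.12, 5.2 and 5.66 FPKM in WT_0d and 4.83, 3.78 and 5.51 FPKM in WT_5d, which overlap, and at 6.86, 7.37 and 6.93 FPKM in PPARγ/+_0d and 4.15, 4.36 and 4.36 FPKM in PPARγ/+_5d, which do not. Its log2 fold change was -0.19 (standard error 0.15, adjusted p = 0.367) in WT and -0.70 (standard error 0.07, adjusted p = 0.000262) in PPARγ/+ cells. An antisense gene, *Gm45346*, overlaps 896 bases of the exons of *Bdnf*, and since the library kit does not mark the strand, reads of the overlap cannot be told apart.

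*Ostn* (chr16:27307489-27351212) was at 0 in 11 libraries and at 0.0309 FPKM, 1 fragment, in WT_5d replicate 3. A count of 0 in the 3 libraries of a group, taken as at most 3 fragments, allows up to 0.0311 FPKM in WT_0d, 0.0292 FPKM in PPARγ/+_0d and 0.0347 FPKM in PPARγ/+_5d. The gene was not detectable at this depth in these groups, and 184 bases of its exons are shared with the antisense gene *Gm32312*.

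**Figure D2:**
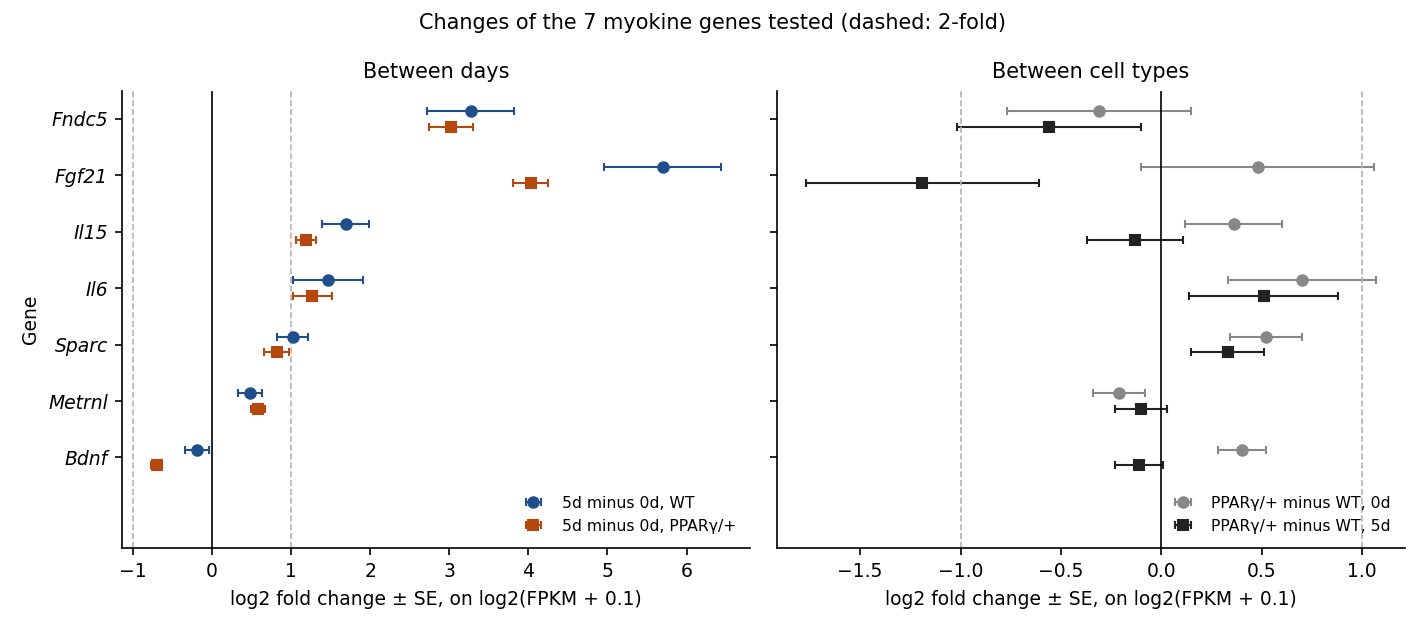
Log2 fold changes of the 7 myokine genes tested, on the scale of log2(FPKM + 0.1), with bars of 1 standard error from limma, between the days within each cell type (left) and between the cell types on each day (right), where dashed lines mark 2-fold. On the left the WT and PPARγ/+ points lie farthest apart for *Fgf21* (5.70 and 4.03). The bars also do not meet for *Il15* (1.69 and 1.19) and *Bdnf* (-0.19 and -0.70). Such bars are no test of a difference between the cell types. The interaction of cell type and day, described below, was not called for *Fgf21*, *Il15* or *Bdnf* (adjusted p = 0.46, 0.62 and 0.23 in limma). On the right *Fgf21* on 5d (-1.19) is the only point beyond 2-fold.

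Set against WT cells on the same day, no myokine gene differed past the threshold in PPARγ/+ cells, which was an adjusted p of at most 0.05 with a fold change of at least 2. On 0d 1.96% of all genes tested were called, 0.571% as higher and 1.39% as lower in PPARγ/+ cells, and on 5d 1.1% were called, 0.571% as higher and 0.533% as lower. At an unadjusted p under 0.05 and any fold, limma passed 2 of the 7 on 0d (*Bdnf* and *Sparc*), where 21.3% of all genes passed, and 0 of the 7 on 5d, where 15.3% passed. On 0d *Bdnf* was 0.40 higher on the log2 scale in PPARγ/+ cells (standard error 0.12, adjusted p = 0.0752) and its libraries did not overlap, with 5.12 to 5.66 FPKM in WT and 6.86 to 7.37 FPKM in PPARγ/+ cells. *Il6* was the other gene without overlap on 0d, 0.70 higher (standard error 0.37, adjusted p = 0.315) from 3 to 15 fragments a library. *Sparc* gave 0.52 (standard error 0.18, adjusted p = 0.117) on 0d, where PPARγ/+_0d replicate 1 lay inside the WT range, and 0.33 (standard error 0.18, adjusted p = 0.419) on 5d, where all 3 PPARγ/+ libraries were above all 3 of WT. Libraries without overlap in the upward direction were found for 13.7% of all genes on 0d and 10.2% on 5d, and in the downward direction for 13.1% and 8.31%. The values of the other genes on 0d were -0.31 for *Fndc5*, 0.36 for *Il15*, -0.21 for *Metrnl* and 0.48 for *Fgf21*.

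On 5d the *Fndc5* libraries of both cell types overlapped, with means of 1.71 ± 0.783 FPKM (SD, n = 3) in WT_5d and 1.07 ± 0.396 FPKM (SD, n = 3) in PPARγ/+_5d and a log2 difference of -0.56 (standard error 0.46, adjusted p = 0.618). *Fgf21* was at 8.49 ± 6.1 FPKM (SD, n = 3) in WT_5d and 2.77 ± 0.515 FPKM (SD, n = 3) in PPARγ/+_5d, a log2 difference of -1.19 (standard error 0.58, adjusted p = 0.363). The latter value turned on WT_5d replicate 3, the library with the low myotube markers. Without it the *Fgf21* difference was -2.04 (standard error 0.33, adjusted p = 0.00366), which is past the threshold, and that of *Fndc5* was -1.0 (standard error 0.44, adjusted p = 0.176), which is not. Of 12 fits with a single library left out, this was the only 1 in which *Fgf21* was called, with values of -2.04 to -0.63. It also called more genes in general, 796 of the 18023 tested against 199 with all libraries. *Il15* (-0.13), *Il6* (0.51), *Metrnl* (-0.10) and *Bdnf* (-0.11) were not called on 5d with or without WT_5d replicate 3. Without it *Il6* gave 0.93 (standard error 0.32, adjusted p = 0.0849), and *Metrnl* (0.05) and *Bdnf* (0.01) changed sign.

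The difference between the changes of the cell types was tested as the interaction of cell type and day, the change in PPARγ/+ minus that in WT cells. None of the 7 genes passed an adjusted p of 0.05, which 0.76% of all genes did, and at an unadjusted p under 0.05 limma passed 1 (*Bdnf*), where 12% of all genes passed. *Bdnf* gave -0.51 (standard error 0.17, adjusted p = 0.23), with 7.05 ± 0.273 FPKM (SD, n = 3) in PPARγ/+_0d as the highest of its 4 group means and 4.29 ± 0.123 FPKM in PPARγ/+_5d as the lowest. *Fgf21* gave -1.68 (standard error 0.82, adjusted p = 0.46) with all libraries and -2.53 (standard error 0.44, adjusted p = 0.0156) without WT_5d replicate 3. The latter was the only 1 of 12 fits with a single library left out that called *Fgf21* (-2.53 to -1.12). It called 527 of all genes, against 137 with all libraries. The values of the others were -0.25 for *Fndc5*, -0.50 for *Il15*, -0.19 for *Il6*, 0.11 for *Metrnl* and -0.20 for *Sparc*.

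**Figure D3:**
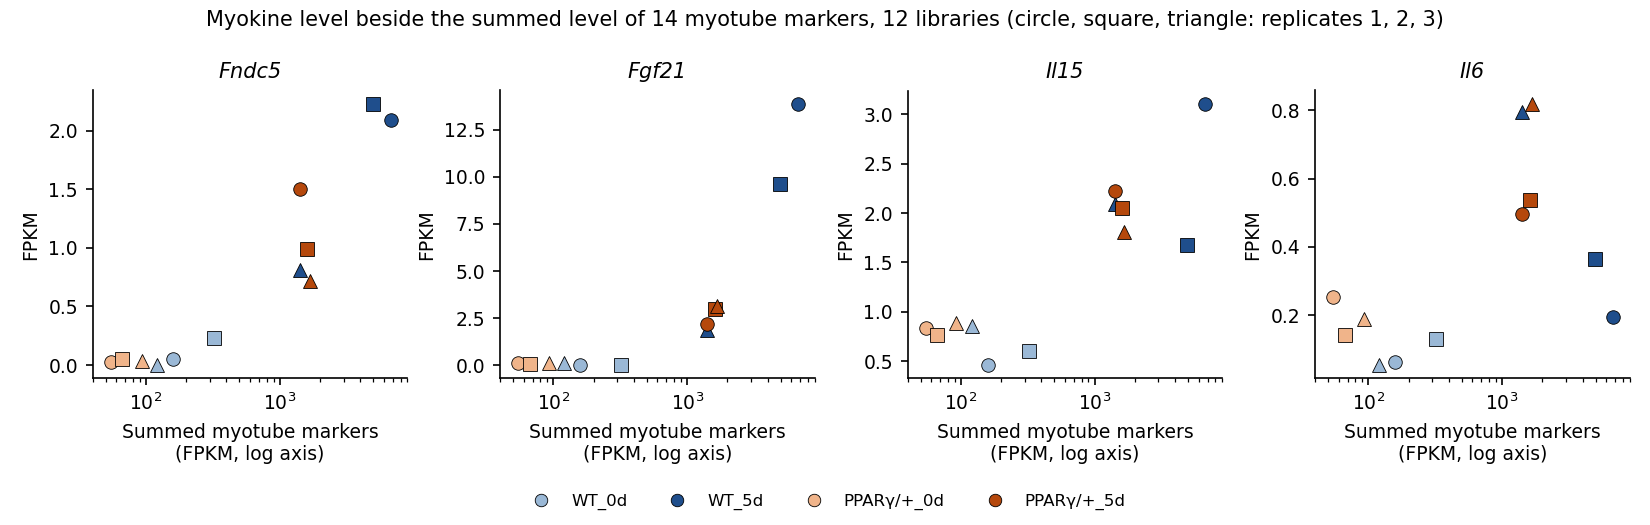
FPKM of *Fndc5*, *Fgf21*, *Il15* and *Il6* (linear axes) against the summed FPKM of 14 myotube markers (log axis) in the 12 libraries, coloured by group and shaped by replicate. WT_5d replicate 3 (1418 FPKM of markers) lies beside the PPARγ/+_5d libraries (1417 to 1671 FPKM) in every panel, whereas WT_5d replicates 1 and 2 stand to the right of all others, highest for *Fndc5* and *Fgf21* and lowest of the 5d libraries for *Il6*.

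Among the libraries of 5d, WT_5d replicate 3 and the 3 of PPARγ/+_5d had similar summed myotube markers, and their ranges of 3 myokine genes were close as well. The likeness is that of the sum, since at least 7 of the 13 markers tested were higher in WT_5d replicate 3 than in all PPARγ/+_5d libraries. These 4 libraries held 0.721 to 1.5 FPKM of *Fndc5*, 1.89 to 3.12 FPKM of *Fgf21* and 0.497 to 0.82 FPKM of *Il6*. WT_5d replicates 1 and 2, with more of the markers, held 2.09 and 2.23 FPKM of *Fndc5*, 13.9 and 9.64 FPKM of *Fgf21* and 0.194 and 0.363 FPKM of *Il6*. *Il15* did not follow either order, since these 2 libraries held its highest (3.11 FPKM) and its lowest (1.68 FPKM) value of 5d. For the other genes WT_5d replicate 3 stood outside the range of PPARγ/+_5d, lower in *Sparc* (1200.2 against 1758 to 1810.5 FPKM) and higher in *Metrnl* (25.4 against 17.6 to 20.5 FPKM) and *Bdnf* (5.51 against 4.15 to 4.36 FPKM).

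The genes whose log2 level was most like that of a myokine gene over the 12 libraries were looked up among 12399 genes by Pearson r, as a description over libraries that share their groups. For *Fndc5* they were *Myom2*, which codes for a protein of the sarcomere's M band (r = 0.989), *Cox8b*, a cytochrome oxidase subunit of striated muscle (0.987), and *Synpo2*, an actin-binding protein of muscle (0.987). *Myom2* had group means of 1.05, 46.4, 0.473 and 24.4 FPKM in WT_0d, WT_5d, PPARγ/+_0d and PPARγ/+_5d. For *Sparc* they were the matrix genes *Bgn* (0.975), *Col27a1* (0.974) and *Col6a2* (0.974), and *Bgn*, which codes for the proteoglycan biglycan, had means of 248, 775, 387 and 957 FPKM in the same order of groups. For *Fgf21* they were *Snap47* (0.991), *Unc13d* (0.989) and *Cand2* (0.984), for *Il15* *9930012K11Rik* (0.968), *Sspn* (0.964) and *Mttp* (0.960), and for *Metrnl* *Ccnq* (0.971), *Tg* (0.956) and *Gm26809* (0.954). *Bdnf*, with the smallest range, was most like *3830403N18Rik* (0.948), *Polr2k* (0.940) and *Acbd3* (0.934). *Il6* and *Ostn* did not reach 1 FPKM in any group mean and were not compared.

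Receptors of the myokines, a list of 20 genes of which 16 passed the filter, were next set beside their ligands. In WT cells 4 were called higher and 1 lower on 5d (8.94% and 7.53% of all genes), and in PPARγ/+ cells 4 higher and 0 lower (9.11% and 6.06% of all genes). Their median log2 fold change was 0.24 and 0.45, where that of all genes was -0.08 and -0.10. *Il2rb* needed libraries of 5d to pass the filter, which favoured a higher value on 5d in advance. Its part in these counts and medians is no independent support. *Fgfr4*, a receptor of fibroblast growth factors, rose from 0.175 ± 0.0939 to 1.38 ± 0.814 FPKM (SD, n = 3) in WT (log2 fold change 2.35, adjusted p = 0.00935) and from 0.133 ± 0.0555 to 1.42 ± 0.267 FPKM in PPARγ/+ cells (2.72, adjusted p = 0.000263). The coreceptor that Fgf21 needs, β-klotho (*Klb*), held 0 to 4 fragments a library in all 12, at most 0.0355 FPKM. The main receptor partner of Fgf21, *Fgfr1*, was at 26.2 to 31.6 FPKM in the group means and was not called.

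*Il2rb*, the β chain shared by the receptors of interleukins 2 and 15, rose from 0.0596 ± 0.049 to 1.15 ± 0.696 FPKM (SD, n = 3) in WT cells (log2 fold change 2.78, adjusted p = 0.0106) and from 0.0606 ± 0.0669 to 0.53 ± 0.0923 FPKM in PPARγ/+ cells (2.05, adjusted p = 0.00282). The α chain of interleukin 15, *Il15ra*, was at group means of 0.401 to 0.692 FPKM and was not called. Of the interleukin 6 receptor, the α chain *Il6ra* was at 3.29 to 5.55 FPKM and the signalling chain *Il6st* (gp130) at 17.5 to 28.5 FPKM in the group means, and neither was called. The integrin chains reported to bind irisin, *Itgav* and *Itgb5*, were at 13.5 to 14.5 and 47.3 to 89.1 FPKM. *Itgb5* had a log2 fold change of 0.91 (adjusted p = 0.000989) in WT and 0.84 (adjusted p = 0.00183) in PPARγ/+ cells, under the 2-fold rule.

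Of the receptors of Bdnf, *Ntrk2* (TrkB) was at a mean of at most 0.0013 FPKM in each group, and *Sort1*, sortilin, rose from 0.593 ± 0.0664 to 3.16 ± 0.499 FPKM (SD, n = 3) in WT (log2 fold change 2.23, adjusted p = 0.000391) and from 0.623 ± 0.176 to 2.44 ± 0.0175 FPKM in PPARγ/+ cells (1.84, adjusted p = 0.000403). *Ngfr*, the low-affinity neurotrophin receptor, was at 0.913, 1.09 and 1.04 FPKM in WT_0d, from 61, 95 and 83 fragments, and at 0 or 1 fragment in each library of WT_5d. It was at 0 in all 6 PPARγ/+ libraries. It was called lower on 5d in WT cells (adjusted p = 0.000218) and lower in PPARγ/+_0d than in WT_0d (adjusted p = 1.56e-05). *Ngfr* passed the filter of 0.1 FPKM through the WT_0d libraries alone, which favoured both calls in advance. Its part in the counts of receptors is therefore no independent support. *Npr3*, the clearance receptor that Ostn binds, was at 0.332 ± 0.18 and 0.315 ± 0.0376 FPKM (SD, n = 3) in WT_0d and WT_5d, and rose from 0.121 ± 0.0182 to 0.749 ± 0.221 FPKM in PPARγ/+ cells (log2 fold change 1.92, adjusted p = 0.00086). *Kit*, proposed as a receptor of Metrnl, was at 0 in all groups. Between the cell types, *Fgfr2* was the receptor called higher in PPARγ/+ cells on 0d (1.58 ± 0.0921 against 3.43 ± 0.188 FPKM, SD, n = 3, log2 difference 1.07, adjusted p = 0.0146). At an unadjusted p under 0.05 and any fold, limma passed 8 of the 16 receptors on 0d, where 21.3% of all genes passed. Libraries of 0d without overlap were found for 3 receptors upward and 5 downward, beside 13.7% and 13.1% of all genes. On 5d limma called 0 of the 16 receptors between the cell types, where 1.1% of all genes were called, and 3 passed an unadjusted p under 0.05, as 15.3% of all genes did.

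Relatives of the myokine genes by family, 32 genes of which 19 were tested, were counted in the same way. In WT cells 4 were called higher and 2 lower on 5d, and in PPARγ/+ cells 4 higher and 0 lower, beside 8.94% and 7.53% of all genes in WT and 9.11% and 6.06% in PPARγ/+ cells. Their median log2 fold change was 0.29 and 0.42. *Fndc1*, another gene with fibronectin type III domains, rose from 3.4 ± 2.16 to 76.2 ± 15.7 FPKM (SD, n = 3) in WT (log2 fold change 4.60, adjusted p = 0.000633) and from 6.52 ± 3.91 to 69.3 ± 8.1 FPKM in PPARγ/+ cells (3.65, adjusted p = 0.00173), levels per length far above those of *Fndc5*. *Sparcl1*, the closest relative of *Sparc*, was at 1.13 ± 0.985 and 2.36 ± 1.66 FPKM (SD, n = 3) in WT_0d and WT_5d and rose from 2.77 ± 1.02 to 22.9 ± 5.25 FPKM in PPARγ/+ cells (log2 fold change 3.03, adjusted p = 0.00019), which made it higher than in WT cells on 5d (log2 difference 3.5, adjusted p = 0.017). *Lif*, of the interleukin 6 family, rose from 1.17 ± 0.208 to 4.73 ± 2.63 FPKM (SD, n = 3) in WT (log2 fold change 1.75, adjusted p = 0.0305) and from 0.479 ± 0.139 to 2.42 ± 0.579 FPKM in PPARγ/+ cells (2.12, adjusted p = 0.000641). *Metrn*, the relative of *Metrnl*, stayed at group means of 0.191 to 0.5 FPKM and was not called. *Nppb*, a natriuretic peptide of the family whose clearance receptor Ostn binds, was lower in PPARγ/+_0d than in WT_0d (0.255 ± 0.136 against 1.88 ± 0.471 FPKM, SD, n = 3, log2 difference -2.52, adjusted p = 0.00672), its change in WT cells being -1.21 (adjusted p = 0.0696), and *Spock2*, of the Sparc family, was higher (26.8 ± 2.77 against 13.3 ± 2.61 FPKM, log2 difference 1.02, adjusted p = 0.0254).

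**Figure D4:**
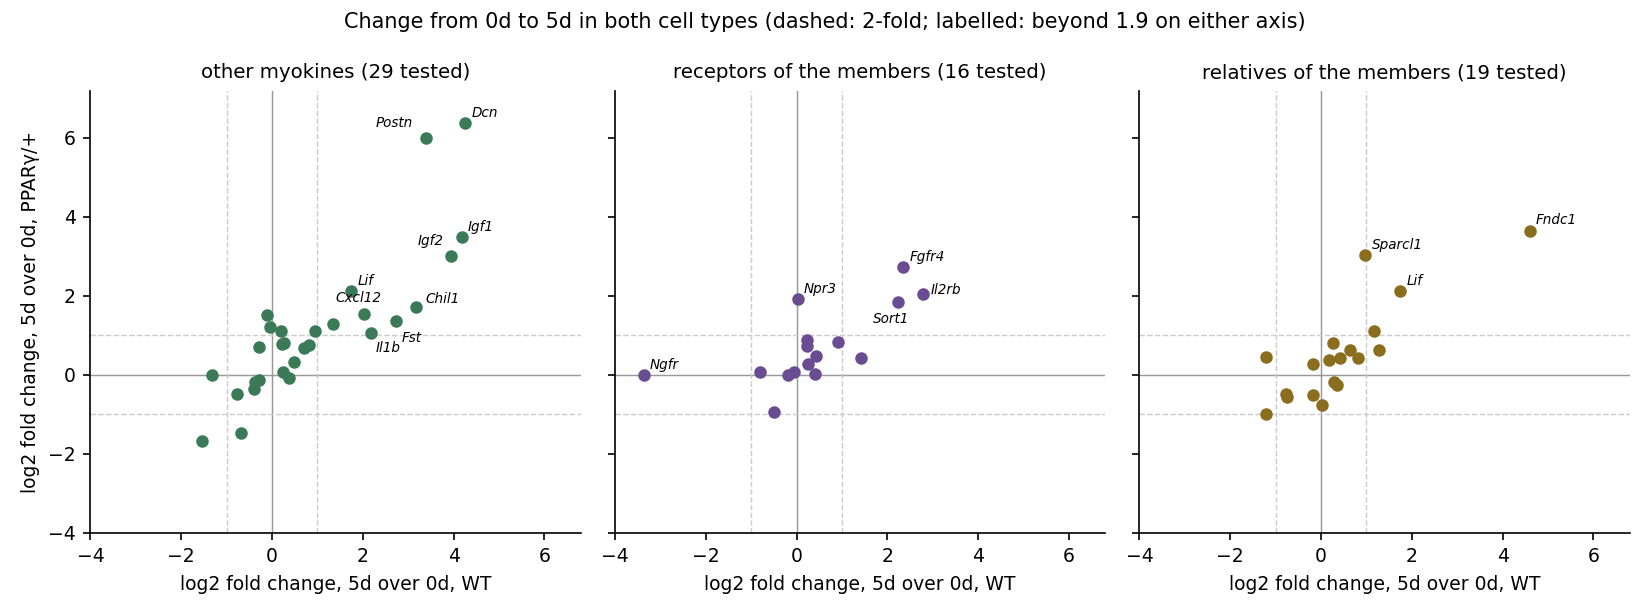
Log2 fold change from 0d to 5d in WT cells (horizontal) against that in PPARγ/+ cells (vertical), on the scale of log2(FPKM + 0.1), for 29 other myokines, 16 receptors and 19 relatives that were tested, with 1 point a gene in each panel (*Metrn*, *Fstl1* and *Lif* are in the first and the last) and dashed lines at 2-fold. *Dcn* and *Postn* are highest on the vertical axis (6.37 and 6.0), *Fndc1* is farthest to the right (4.60), and *Ngfr* stands alone on the left (-3.37).

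Of 22 regulators known for the myokine genes or for stress, 21 were tested, and 2 were called higher and 2 lower in WT cells and 2 higher and 1 lower in PPARγ/+ cells. These shares are near those of all genes, 8.94% and 7.53% in WT and 9.11% and 6.06% in PPARγ/+ cells. *Mef2c*, a transcription factor of muscle, had the largest change called in WT cells, from 0.157 ± 0.0979 to 1.98 ± 1.66 FPKM (SD, n = 3, log2 fold change 2.49, adjusted p = 0.0747), with libraries that overlapped between the days. It was also called higher in PPARγ/+ cells, at lower levels and without overlap, from 0.0341 ± 0.0202 to 0.219 ± 0.036 FPKM (1.26, adjusted p = 0.00451 in limma). *Ppargc1a*, which codes for PGC-1α, was at group means of 0.026 to 0.125 FPKM, from at most 24 fragments a library, and was not called. In PPARγ/+ cells its libraries of 5d all lay above those of 0d (log2 fold change 0.37, adjusted p = 0.254 in limma). Its part in the change of *Fndc5* was not tested. *Atf4*, the transcription factor of the integrated stress response that is known for driving *Fgf21*, was at 182 to 199.7 FPKM in WT_0d and 157 to 163 FPKM in WT_5d (log2 fold change -0.26, adjusted p = 0.0459). Its log2 fold change in PPARγ/+ cells was -0.45 (adjusted p = 0.00409). *Asns*, asparagine synthetase and a known target of ATF4, was called lower on 5d in both cell types, by log2 fold changes of -1.07 (adjusted p = 0.0359) in WT and -1.35 (adjusted p = 0.000787) in PPARγ/+ cells, and *Ddit3*, *Trib3* and *Chac1* were not called. ATF4 protein was not measured, and the part of these genes in the change of *Fgf21* was not tested. *Socs3*, a feedback inhibitor of gp130 signalling, rose by log2 fold changes of 1.24 (adjusted p = 0.016) in WT and 1.23 (adjusted p = 9.74e-05) in PPARγ/+ cells. *Atf3*, a stress-response factor, fell in WT cells by 1.49 on the log2 scale (adjusted p = 0.0178) and was lower in PPARγ/+_0d than in WT_0d (0.898 ± 0.0913 against 3.86 ± 0.854 FPKM, SD, n = 3, log2 difference -1.97, adjusted p = 0.00381), and so was *Ppargc1b* (log2 difference -1.29, adjusted p = 0.00874), the relative of PGC-1α. Of 6 tested proteases that cut secreted proteins, *Pcsk6* was the one called, higher on 5d in WT (log2 fold change 2.52, adjusted p = 0.0106) and PPARγ/+ cells (1.32, adjusted p = 0.000641), as 8.94% and 9.11% of all genes were. It was also called higher in PPARγ/+_0d than in WT_0d (1.85 ± 0.382 against 0.585 ± 0.346 FPKM, SD, n = 3, log2 difference 1.61, adjusted p = 0.0417), as 0.571% of all genes were.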

How the data were processed

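RNA of the 12 libraries was prepared with a TruSeq kit that does not mark the strand and was sequenced as read pairs. The authors used Trim Galore for trimming, STAR for alignment and HTSeq for counts of known genes and deposited the FPKM of 46983 genes, which are the values used. Their second table, deposited as log2(FPKM + 1), differed from these by at most 5.3e-14 and was not used further. The labels name mm9 and the methods GRCm38 as the build. Lengths of GRCm38 turned the FPKM of 21058 of 27138 expressed genes into whole fragments (within 0.001) and inferred lengths did so for the other 6080. Depth, floors of 3 fragments and intervals (95%, exact binomial) come from these fragments and cover counting error only.

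Genes with at least 0.1 FPKM in 3 libraries (18023) were tested on log2(FPKM + 0.1) with limma 3.58.1 in R 4.3.3 (trended empirical Bayes, two-sided), and fold changes are on that scale, which understates changes of low genes. The days were compared within each cell type on its own 6 libraries with the thresholds of the study's methods, an unadjusted p no larger than 0.05 and 2-fold or more. The cell types and the interaction were fitted on all 12 libraries and called at a Benjamini-Hochberg adjusted p no larger than 0.05, the former also at 2-fold or more. Adjusted p-values are over all genes tested. The script was tested on simulated data, and no library column was left out. Of 5 comparisons, each was repeated with other values added before the log, filters, scalings, fragments in place of FPKM, a replicate block and single libraries left out.

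The 8 genes and the lists were chosen with earlier results of these data known. Besides the 8, the text names the 3 called genes of a list with the largest change and a mean of 1 FPKM, receptors beside their ligand, and the 3 genes most like each of the 8. *Metrn*, *Ppargc1a*, *Atf4*, *Ddit3*, *Trib3* and *Chac1* were added for their known link to the 8 after their values were seen. Promoter sequences are those of RefSeq (GRCm38.p6). Tables were made with Python 3.11.15, pandas 2.3.3 and scipy 1.17.1, and figures with matplotlib 3.10.9. Annotation positions are those of GRCm38.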

Additional observations from a re-analysis of the deposited data

Results flagged for a closer look

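*Ngfr* was singled out by the test of the difference between the changes of the cell types, with 3.37 on the log2 scale for the change from 0d to 5d in PPARγ/+ minus that in WT cells (limma, adjusted p = 0.00126). WT cells went from 61 to 95 fragments a library on 0d to 0 or 1 on 5d, and PPARγ/+ cells held none on either day, so the value is a fitted one whose size depends on the FPKM added before the log. The gene passed the filter through the WT_0d libraries alone, which favoured this value in advance.

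*Spp1*, which codes for osteopontin, was singled out by the same test with 1.64 (adjusted p = 0.0154). It was at 717, 1001 and 993 FPKM in WT_0d, 902, 783 and 788 FPKM in WT_5d, 440.4, 333 and 364 FPKM in PPARγ/+_0d and 944, 1016 and 1313 FPKM in PPARγ/+_5d. The PPARγ/+_0d libraries stood below all the others, and the gene was called lower in PPARγ/+_0d than in WT_0d (log2 difference -1.25, adjusted p = 0.00327).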

How the results depend on the processing

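Replicate numbers did not pair the libraries (correlations of deviations of same-numbered libraries from their group means between -0.068 and 0.083), and a replicate block left 3029, 2766, 311 and 170 genes called in WT, in PPARγ/+, on 0d and on 5d and moved the interaction from 137 to 61, with the same number of myokine genes called. With 1 FPKM added, 1441 genes and 3 of the myokine genes were called in WT cells, 1241 and 1 in PPARγ/+ cells, 120 genes on 0d and 95 on 5d. A filter at 1 FPKM gave 1806 in PPARγ/+ cells and 93 on 5d, and the 6 libraries of 5d alone gave 28. Without single libraries 2765 to 3057 genes were called in WT, 2535 to 2829 in PPARγ/+, 180 to 491 on 0d, 78 to 796 on 5d and 42 to 527 for the interaction, the highest of the last 2 without WT_5d replicate 3, and the myokine genes called were 4 to 5, 4, 0, 0 to 1 and 0 to 1. Signs turned for uncalled differences with single libraries left out, *Fndc5* on 0d (-0.71 to 0.15, the latter without WT_0d replicate 2) and on 5d *Il15* (-0.32 to 0.10, without WT_5d replicate 1), *Bdnf* (-0.26 to 0.01) and *Metrnl* (-0.20 to 0.05, both without WT_5d replicate 3), and in the interaction for *Fndc5* (-0.72 to 0.14, without WT_0d replicate 3) and *Il6* (-0.57 to 0.24, without WT_5d replicate 3, and 0.03 with 1 FPKM added). The cause was not tested. Median-ratio scaling moved the median change of all genes in WT cells from -0.08 to 0.02 and in PPARγ/+ cells from -0.10 to 0.02, and the share of calls that were higher from 54.3% to 62.7% and from 60% to 67.9%. Few fragments limit *Il6*, *Ostn* and the values of *Fndc5* and *Fgf21* on 0d.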

Other observations

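Other myokines, a list of 32 genes of which 29 were tested, gave 10 called higher and 2 lower on 5d in WT cells, where 8.94% and 7.53% of all genes were called, and 14 higher and 2 lower in PPARγ/+ cells, where 9.11% and 6.06% were. Their median log2 fold change was 0.37 in WT and 0.81 in PPARγ/+ cells, against -0.08 and -0.10 over all genes. *Chil1* and *Il1b*, called higher in both cell types, and *Cxcl10*, not called, reached 0.1 FPKM only in libraries of 5d. The filter thus favoured a higher value on 5d for them in advance, and their part in these counts and medians is no independent support. *Dcn*, which codes for the matrix proteoglycan decorin, rose from 18.9 ± 15.6 to 296 ± 72.1 FPKM (SD, n = 3) in WT (log2 fold change 4.25, adjusted p = 0.00215 in limma) and from 6.11 ± 2.91 to 479 ± 51.2 FPKM in PPARγ/+ cells (6.37, adjusted p = 2.63e-05). *Igf1*, a growth factor of muscle, rose by 4.18 (adjusted p = 0.00129) and 3.48 (adjusted p = 0.000281) on the log2 scale, and *Igf2* rose by 3.95 (adjusted p = 0.0176) and 3.02 (adjusted p = 0.00177) in WT and PPARγ/+ cells. *Postn*, periostin, rose by 3.39 in WT cells (adjusted p = 0.00526) and by 6.0 in PPARγ/+ cells (adjusted p = 6.36e-05), in the latter from a level on 0d that was below that of WT cells (0.429 ± 0.258 against 2.84 ± 2.01 FPKM, SD, n = 3, adjusted p = 0.0227).

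Between the cell types, *Angptl4*, an inhibitor of lipoprotein lipase and a known target of PPARγ, was higher in PPARγ/+ cells on 0d (15.9 ± 3.34 against 7.14 ± 1.2 FPKM, SD, n = 3, log2 difference 1.14, adjusted p = 0.0194) and on 5d (34.4 ± 8.28 against 8.38 ± 2.6 FPKM, log2 difference 2.04, adjusted p = 0.00222). *Gdf15*, a stress-induced cytokine, was higher on 5d (8.04 ± 1.77 against 3.31 ± 0.74 FPKM, SD, n = 3, log2 difference 1.26, adjusted p = 0.0256), and *Erfe*, erythroferrone or myonectin, was lower (1.03 ± 0.113 against 2.39 ± 0.74 FPKM, log2 difference -1.10, adjusted p = 0.0412).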
